A study of Mus musculus with 4 samples.

Results

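Efferocytosis is the uptake of dying cells by phagocytes. The genes described here are 10 of its receptors, bridging proteins and signalling parts, chosen by name from 35869 genes listed in the data: the receptor tyrosine kinases Tyro3, Axl and Mertk (the TAM receptors), their secreted ligands Gas6 and Pros1, the bridging protein Mfge8 with the integrin subunits Itgav and Itgb5, the scavenger receptor Stab1 and the adaptor Elmo1. They were chosen by role and not by a threshold on measured values, but with earlier results of these data known. RNA-seq was run on CD45+ cells, the immune fraction, of the epididymal white adipose tissue (eWAT), a fat pad of the male abdomen. All samples came from male WT C57BL/6 mice. From 8 weeks of age and for 12 weeks the mice were fed a normal diet (ND, 10% of calories from fat) or a high-fat diet (HFD, 60% of calories from fat), and each diet has 2 samples. The sources used here do not give the number of mice behind each sample or say that the samples of a diet came from separate mice, so the p-values below measure only the spread between these samples, which may be technical. The cells were held by magnetic beads against CD45 and were not sorted further, so the fraction is a mixture of immune cell types.

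A dying cell exposes phosphatidylserine, a lipid that living cells keep on the inner face of the membrane. Gas6 and protein S (Pros1) bind this lipid and link it to TAM receptors, MFG-E8 (Mfge8) links it to the integrins alpha-v beta-3 and alpha-v beta-5, and stabilin-1 (Stab1) binds it directly. Signals from these receptors reach Rac through ELMO1 and its partner DOCK180, and the membrane then closes around the dying cell. In obese adipose tissue, macrophages gather around dead adipocytes and take up their lipid.

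With HFD the set split in 2 directions. Of the 9 genes tested, 4 were higher in HFD (Mfge8, Itgb5, Itgav and Axl) and 2 were lower (Gas6 and Stab1), while Mertk, Pros1 and Elmo1 did not pass the test. Mfge8 rose 5.98-fold, Itgb5 4.71-fold, Itgav 3.77-fold and Axl 2.56-fold, and Gas6 was 3.04-fold and Stab1 1.64-fold lower, as ratios of mean TPM. TPM, a length-scaled measure of transcript abundance, is a read count divided by gene length and scaled to the same total in every sample, so levels of different genes can be compared and all are relative. The test was limma's moderated test on log2(TPM + 1), with Benjamini-Hochberg adjustment over the 16849 genes in which 2 or more samples reached a TPM of 1. A gene was called when its adjusted p was under 0.05 and its change at least 1.5-fold. By that rule 8.08% of all genes tested were higher in HFD and 10.3% were lower, 18.4% in all. The tenth gene, Tyro3, was under the TPM limit. With 1 sample left out, all the spread comes from the other diet. Without an HFD sample, where the spread is that of the ND samples, which were less far apart, the same 6 genes were called. Without ND replicate 1 or ND replicate 2, where the spread is that of the HFD samples, limma called 0 genes of any kind, with 3471 and 3686 at an unadjusted p under 0.05, and the adjusted p of the 6 was 0.176 and 0.168.

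The 2 ND values and the 2 HFD values did not overlap for any of the 10 genes, which was also true of 66.9% of all genes tested. A permutation of 2 samples against 2 cannot go under an exact two-sided p of 0.333, so only the fit across all genes can pass a threshold here. The median log2 fold change over the 9 genes was 0.13 and that over all genes tested 0.06, while the medians of the absolute log2 fold change were 1.32 and 0.32. Members rose and fell, so the median of the signed changes stayed near 0 while the changes themselves were large. A change of at least 2-fold on the log2(TPM + 1) scale was seen in 5 of the 9, and in 11.9% of all genes tested. The genes were chosen with earlier results of these data known. Their share called and the size of their changes beside all genes are therefore descriptions and no test of the set.

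**Figure D1:**
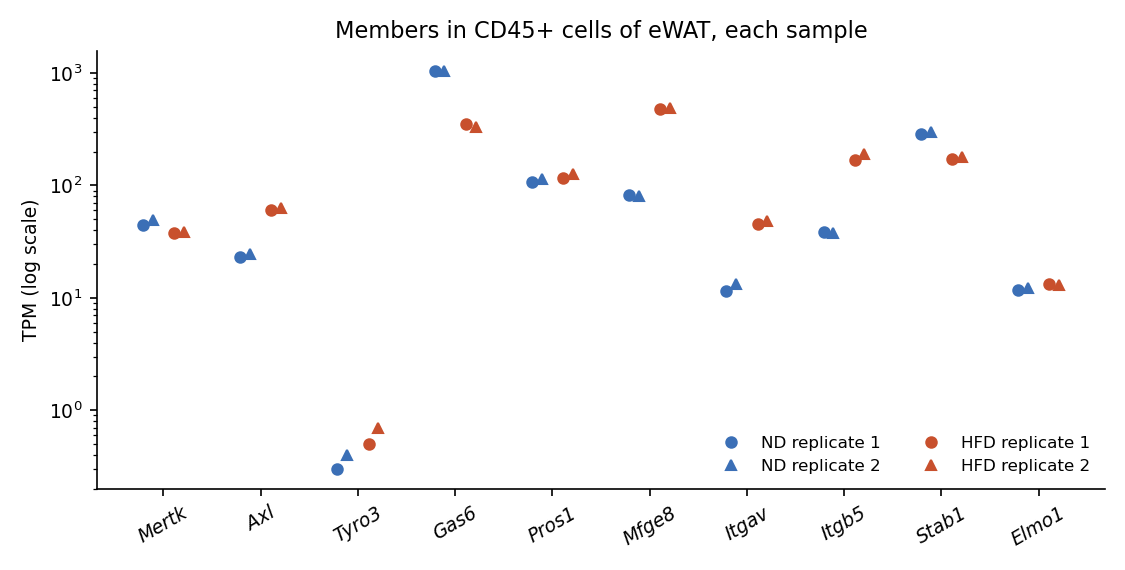
TPM (log scale) of the 10 genes in each ND sample (blue) and HFD sample (red), with replicate 1 as circles and replicate 2 as triangles. Samples of 1 diet lie close together for every gene but Tyro3, which is under 1 TPM throughout, and the diets part widely for Axl, Gas6, Mfge8, Itgav and Itgb5.

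Counted reads came to approximately 37600000 (ND replicate 1), 44500000 (ND replicate 2), 46900000 (HFD replicate 1) and 41100000 (HFD replicate 2), estimated from the smallest steps in the TPM of short genes. Over 12137 genes the 2 ND samples differed by 1.86 times their counting error, and over 11741 genes the 2 HFD samples differed by 3.31 times. The leukocyte gene Ptprc, which encodes CD45, was at 54.5, 59.4, 55.3 and 53.7 TPM in ND replicates 1 and 2 and HFD replicates 1 and 2. The list of 4 leukocyte markers that holds it summed to 2599 and 2510 TPM in ND and to 2019 and 2111 TPM in HFD, with 1 called lower, Coro1a (log2 fold change -0.71). The 7 general macrophage markers summed to between 11245 and 12345 TPM in the 4 samples, with 2 called higher, Adgre1 and Cd68. Markers of other cells differed between the HFD samples. Fibroblast markers summed to 535 and 575 TPM in ND and to 2863 and 5724 TPM in HFD, and spermatid markers to 6577 TPM in HFD replicate 1 against 1757 to 2023 TPM in the other samples. No gene of the 21 marker lists checked was at 0 in all 4 samples. In a bulk sample, fewer cells of a type and less RNA per cell cannot be told apart.

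Promoter sequences are shown for the 6 genes that passed the test so that those that rose and those that fell can be set side by side. Each is the 250 bases before the transcription start in RefSeq for GRCm38.p6 (mm10), read 5′ to 3′ on the gene's own strand. Capitals mark matches to the motifs searched, GGGCGG (read as CCGCCC on the other strand) and GAGGAA (read as TTCCTC).
Axl (chr7:25788734-25788983, minus strand): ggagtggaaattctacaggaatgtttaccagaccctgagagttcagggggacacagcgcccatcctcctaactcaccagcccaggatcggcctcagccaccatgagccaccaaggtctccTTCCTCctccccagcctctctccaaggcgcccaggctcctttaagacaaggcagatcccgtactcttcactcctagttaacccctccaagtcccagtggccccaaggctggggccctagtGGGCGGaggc
Gas6 (chr8:13494536-13494785, minus strand): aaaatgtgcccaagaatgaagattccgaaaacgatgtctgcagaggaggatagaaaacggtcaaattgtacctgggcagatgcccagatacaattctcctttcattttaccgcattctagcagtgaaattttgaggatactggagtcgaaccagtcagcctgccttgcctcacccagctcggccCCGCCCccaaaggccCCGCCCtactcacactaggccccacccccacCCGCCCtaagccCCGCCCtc
Mfge8 (chr7:79149061-79149310, minus strand): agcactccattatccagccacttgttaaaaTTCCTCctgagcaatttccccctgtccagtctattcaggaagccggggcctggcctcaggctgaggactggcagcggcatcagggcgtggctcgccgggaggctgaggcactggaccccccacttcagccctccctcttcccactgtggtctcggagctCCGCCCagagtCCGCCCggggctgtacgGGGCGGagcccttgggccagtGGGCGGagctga
Itgav (chr2:83724147-83724396, plus strand): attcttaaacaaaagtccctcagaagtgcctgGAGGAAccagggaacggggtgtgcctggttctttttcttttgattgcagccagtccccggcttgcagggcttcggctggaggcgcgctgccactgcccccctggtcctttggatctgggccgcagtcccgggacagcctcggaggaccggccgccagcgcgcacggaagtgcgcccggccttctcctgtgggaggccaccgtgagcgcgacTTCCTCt
Itgb5 (chr16:33829415-33829664, plus strand): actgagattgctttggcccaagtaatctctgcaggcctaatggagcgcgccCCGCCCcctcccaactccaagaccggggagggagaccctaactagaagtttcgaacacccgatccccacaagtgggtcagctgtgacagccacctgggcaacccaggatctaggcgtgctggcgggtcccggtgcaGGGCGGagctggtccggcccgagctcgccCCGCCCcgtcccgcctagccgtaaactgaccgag
Stab1 (chr14:31168642-31168891, minus strand): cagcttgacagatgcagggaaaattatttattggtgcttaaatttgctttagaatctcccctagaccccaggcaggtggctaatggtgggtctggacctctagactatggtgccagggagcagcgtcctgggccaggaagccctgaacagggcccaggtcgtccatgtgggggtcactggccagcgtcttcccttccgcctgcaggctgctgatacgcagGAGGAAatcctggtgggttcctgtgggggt
The GC box letters GGGCGG, known as a motif of Sp1, were in the windows of Axl, Gas6, Mfge8 and Itgb5 and not in those of Itgav and Stab1. Gas6, which fell, and Mfge8, which rose, each held 4 matches, so the count did not part the directions. GGGCGG was found in 8 of the 11 windows of the 10 genes (Elmo1 has 2) and in 32.7% of 32851 promoters of the same length. The share of G and C was 54.8% (Gas6) to 73.2% (Tyro3) in all windows but the second of Elmo1 (43.6%). The median over all promoters was 52.4%, and the part of this difference in the GGGCGG count was not tested. The Tyro3 window and the second Elmo1 window overlap exons. GAGGAA, the core of the motif of PU.1, a factor of macrophages, was in 4 of the 11 windows (Axl, Mfge8, Itgav and Stab1) and in 23.3% of all. The E-box CACGTG, the nuclear receptor letters AGGTCA and the AP-1 letters TGACTCA were in none of the 11 windows and in 6.02%, 14.0% and 4.46% of all promoters. Both strands were searched, no match of 1 motif overlaps a match of another, the GGGCGG matches at 12 and 8 bases before the start of Pros1 overlap each other, and a match is a description of letters only. The motifs were chosen after the data had been seen.

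The TAM receptors changed places. Axl, a receptor that needs Gas6 as its ligand, rose, Mertk, the TAM receptor by which macrophages take up dying cells at rest, did not pass the test, and Tyro3, best known from the nervous system, was near the limit of detection. Axl was at 23.0 and 24.8 TPM in ND and at 59.9 and 62.5 TPM in HFD. Every HFD sample was thus at least 2.42 times every ND sample. The log2 fold change was 1.32 (SE 0.07, 95% confidence interval 1.13 to 1.52, limma, adjusted p = 0.00561), and 3.12% of all genes tested had a larger rise. The gene lies on chromosome 7 at 25757273-25788705 of mm10, minus strand, with 19 exon blocks in GENCODE vM21.

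Mertk was at 44.5 and 49.6 TPM in ND and at 37.8 and 38.5 TPM in HFD. Both HFD samples were under both ND samples, but the distance was small. The log2 fold change was -0.29 (SE 0.08, 95% confidence interval -0.52 to -0.07) with a limma adjusted p of 0.0715, so neither the threshold on p nor the 1.5-fold limit was reached. Mertk lies on chromosome 2 at 128698956-128802894, plus strand, in 19 exon blocks.

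Tyro3, on chromosome 2 at 119797733-119818104 (plus strand), had 0.3 and 0.4 TPM in ND against 0.5 and 0.7 TPM in HFD. These values stand for approximately 26.5, 40.9, 50.1 and 61.0 reads in ND replicates 1 and 2 and HFD replicates 1 and 2, whereas every other gene of the set had at least 1649 reads in every sample. Fitted with no limit on low values, its log2 fold change was 0.24 (95% confidence interval -0.07 to 0.56, limma, adjusted p = 0.247). A difference was not detectable at this depth and number of samples, with TPM printed to 1 decimal.

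Mertk was therefore the most abundant TAM receptor in ND and Axl in HFD. The ratio of Axl to Mertk, both in TPM, was 0.517 and 0.5 in the ND samples and 1.58 and 1.62 in the HFD samples. The 3 receptors together summed to 67.8 and 74.8 TPM in ND and to 98.2 and 101.7 TPM in HFD. Axl made up 33.9% and 33.2% of this sum in ND and 61.0% and 61.5% in HFD. The ratio differed more between the diets than between samples of 1 diet, with an exact permutation p of 0.333, the smallest that 2 against 2 samples allow.

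Of the TAM ligands, 1 passed the test. Gas6, the ligand that all TAM receptors bind, fell, and Pros1, a ligand of Mertk and Tyro3 better known as an anticoagulant, did not pass the test. Gas6 was at 1050.2 and 1045.5 TPM in ND and at 355.8 and 332.6 TPM in HFD. The lowest ND sample was 2.94 times the highest HFD sample. The log2 fold change was -1.60 (SE 0.05, 95% confidence interval -1.75 to -1.46, limma, adjusted p = 0.00415), and 2.45% of all genes tested had a larger fall. Gas6 still ranked above 96.9% of genes tested by its mean TPM in HFD. It lies on chromosome 8 at 13465374-13494490, minus strand, in 15 exon blocks, of which 34 bases are shared with Tmem255b on the other strand, a gene at 0.8 to 1.2 TPM.

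Pros1 was at 106.3 and 115.2 TPM in ND and at 116.6 and 125.5 TPM in HFD. The diets did not overlap, but ND replicate 2 and HFD replicate 1 were 1.01-fold apart. On the log2 scale the change was 0.13 (95% confidence interval -0.08 to 0.34, limma, adjusted p = 0.274). Pros1 lies on chromosome 16 at 62854307-62929346, plus strand. The ratio of Gas6 to Pros1 was 9.88 and 9.08 in ND and 3.05 and 2.65 in HFD, so Gas6 was the more abundant TAM ligand under both diets. The summed TPM of both ligands over that of the 3 receptors was 17.1 and 15.5 in ND and 4.81 and 4.50 in HFD.

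Mfge8 rose, as did the alpha-v and beta-5 subunits of the integrins that bind its product. The beta-3 subunit Itgb3, of the other of these integrins, was not called, at 5.0 and 5.4 TPM in ND and at 3.4 and 5.3 TPM in HFD (log2 fold change -0.24, limma, adjusted p = 0.489). Mfge8 encodes MFG-E8, also called lactadherin, which macrophages and other cells secrete. It was at 81.5 and 80.1 TPM in ND and at 481.9 and 485.1 TPM in HFD. The samples of each diet were almost equal, and the HFD values were at least 5.91 times the ND values. The log2 fold change was 2.57 (SE 0.04, 95% confidence interval 2.46 to 2.67, limma, adjusted p = 0.00378), the largest rise of the set, with 0.599% of all genes tested rising more. Mfge8 lies on chromosome 7 at 79133768-79149060, minus strand, in 11 exon blocks.

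Itgb5, the beta-5 subunit, was at 38.7 and 38.1 TPM in ND and at 169.4 and 192.4 TPM in HFD. Its log2 fold change was 2.20 (SE 0.08, 95% confidence interval 1.96 to 2.45, limma, adjusted p = 0.00449). Itgav, the alpha-v subunit with which it pairs, was at 11.6 and 13.2 TPM in ND and at 45.2 and 48.2 TPM in HFD, with a log2 fold change of 1.83 (SE 0.09, 95% confidence interval 1.56 to 2.11, limma, adjusted p = 0.00561). For both subunits each HFD sample was above each ND sample by at least 3.42 times. Itgb5 is on chromosome 16 at 33829665-33949338 and Itgav on chromosome 2 at 83724397-83806916, both on the plus strand. An antisense-strand gene, Gm13684, shares 634 exon bases with Itgav and has no value here.

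Itgb5 was above Itgav in every sample. Their ratio was 3.34 and 2.89 in ND and 3.75 and 3.99 in HFD, a smaller move between the diets than that of either subunit. The summed TPM of Mfge8, Itgav and Itgb5 was 131.8 and 131.4 in ND and 696.5 and 725.7 in HFD.

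Among the secreted bridging proteins, Gas6 led in ND and Mfge8 in HFD. Gas6 made up 84.8% and 84.3% of the summed TPM of Gas6, Pros1 and Mfge8 in the ND samples and 37.3% and 35.3% in the HFD samples. Mfge8 made up 6.58% and 6.46% in ND and 50.5% and 51.4% in HFD, and Pros1 8.59% and 9.28% in ND and 12.2% and 13.3% in HFD. The ratio of Mfge8 to Gas6 moved from 0.0776 and 0.0766 in ND to 1.35 and 1.46 in HFD. The sum of the 3 was 1238 and 1241 TPM in ND against 954 and 943 TPM in HFD, so the makeup of the group moved by far more than its total.

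**Figure D2:**
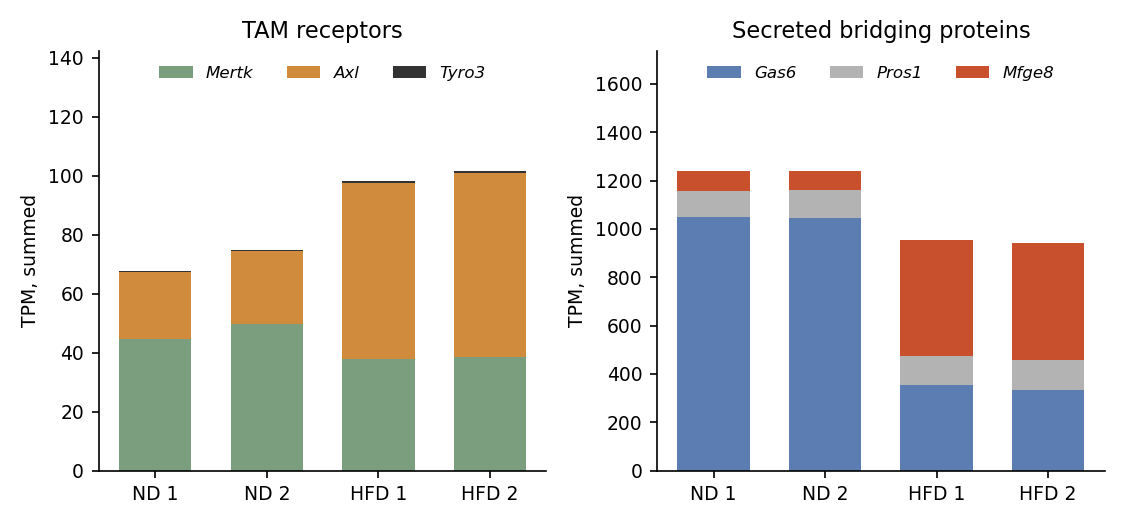
Summed TPM of the TAM receptors (left) and of the secreted bridging proteins (right), stacked by gene, for each sample (ND 1, ND 2, HFD 1 and HFD 2). Axl takes the larger part of the receptor sum in both HFD samples, at 61.0% and 61.5%, and Mfge8 takes 50.5% and 51.4% of the bridging protein sum in place of Gas6.

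Stab1, a large scavenger receptor of macrophages and sinusoidal endothelium that binds phosphatidylserine, fell. It was at 284.5 and 296.0 TPM in ND and at 173.2 and 180.4 TPM in HFD, with no overlap. The log2 fold change was -0.71 (SE 0.05, 95% confidence interval -0.85 to -0.57, limma, adjusted p = 0.00759), and 10.4% of all genes tested had a larger fall. The gene lies on chromosome 14 at 31139013-31168641, minus strand, in 58 exon blocks. It shares 112 exon bases with Nt5dc2 on the other strand, which had 43.2 and 40.5 TPM in ND against 43.6 and 48.7 TPM in HFD and so did not fall with it. Whether the authors' counting used strand is not given in the sources used here.

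Elmo1, which joins receptor signals to Rac, was at 11.7 and 12.3 TPM in ND and at 13.3 and 12.9 TPM in HFD. On the log2 scale the change was 0.12 (95% confidence interval -0.09 to 0.33, limma, adjusted p = 0.303), so a change of 1.5-fold lay outside the interval. It lies on chromosome 13 at 20090596-20608353, plus strand, and shares 403 exon bases with the antisense gene Gm32036, which has no value here.

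**Figure D3:**
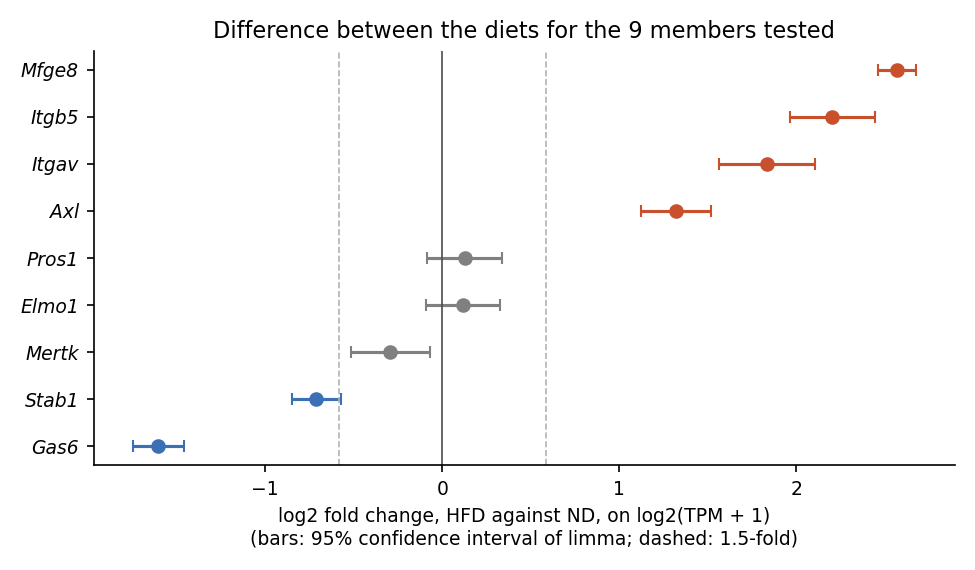
Difference between the diets for the 9 genes tested, as log2 fold change of HFD against ND on the log2(TPM + 1) scale, with limma's 95% confidence interval as bars and the 1.5-fold limits as dashed lines. Mfge8, Itgb5, Itgav and Axl (red) lie above the upper limit and Gas6 and Stab1 (blue) below the lower limit, and Elmo1, Pros1 and Mertk (grey) lie between the limits.

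By level, the order of the genes in ND was Gas6, Stab1, Pros1, Mfge8, Mertk, Itgb5, Axl, Itgav, Elmo1 and Tyro3. In HFD it was Mfge8, Gas6, Itgb5, Stab1, Pros1, Axl, Itgav, Mertk, Elmo1 and Tyro3. Neighbours whose samples overlapped were Itgav and Elmo1 in ND and Itgb5 and Stab1 in HFD, and the samples of all other neighbours did not overlap. Mertk moved from the fifth place to the eighth and Itgb5 from the sixth to the third. All 10 genes together summed to 1652 and 1675 TPM in ND and to 1454 and 1479 TPM in HFD.

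Markers of macrophage types moved with these genes. All 7 markers of lipid-associated macrophages, cells that gather around dead adipocytes in obesity, were higher in HFD, and their sum went from 1032 and 1081 TPM to 8236 and 8639 TPM. The same direction was seen for Mfge8, Itgb5, Itgav and Axl. All 7 markers of resident macrophages, such as Timd4 and Lyve1, were lower, with sums of 4595 and 4705 TPM in ND and of 1535 and 1223 TPM in HFD, the direction of Gas6 and Stab1. Of the 7 genes of the response to tissue dissociation, all were lower in HFD too, with sums of 13722 and 13251 TPM in ND against 6724 and 6213 TPM in HFD. All 4 markers of B cells and all 5 of T cells were lower, the latter with sums of 69.0 and 73.2 TPM in ND against 10.1 and 15.8 TPM in HFD. Mast cell markers were lower in 4 of 4, with sums of 1537 and 1552 TPM in ND against 371 and 472 TPM in HFD, and epididymal epithelium markers in 4 of 5, with sums of 168 and 181 TPM in ND against 13.9 and 32.1 TPM in HFD. Also lower were 4 of 4 NK cell, 3 of 3 neutrophil, 2 of 6 dendritic cell, 2 of 3 platelet and 3 of 4 pericyte and smooth muscle markers tested. All of these ran in the direction of Gas6 and Stab1. The part of these cell types in the changes of the 10 genes was not tested.

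Fibroblasts can also express Axl, Gas6, Mfge8 and the integrin subunits, and 5 of 7 fibroblast markers were higher in HFD. Between the HFD samples, the summed fibroblast markers given above were higher in replicate 2. Divided by its TPM in HFD replicate 1, the TPM in HFD replicate 2 was 1.01 for Mfge8, 1.04 for Axl, 1.07 for Itgav, 1.14 for Itgb5, 0.935 for Gas6 and 1.04 for Stab1. On the log2(TPM + 1) scale the 9 genes tested differed by -0.10 to 0.18 between the HFD samples, fibroblast markers by 0.47 to 1.12, resident macrophage markers by -0.89 to -0.09, lipid-associated macrophage markers by 0.00 to 0.59 and spermatid markers by -2.03 to -1.59. The part of fibroblasts in the changes of the 10 genes was not tested. Adipocyte markers summed to between 14.1 and 20.5 TPM in the 4 samples, and 1 of the 4 tested was called, Lep, which was higher (0.7 and 1.1 TPM in ND, 4.7 and 3.9 TPM in HFD). Of 5 endothelial markers, with sums of 166 and 170 TPM in ND against 195 and 196 TPM in HFD, limma called 0, with 3 at an unadjusted p under 0.05, which 42.3% of all genes tested had. Cdh5 (log2 fold change 0.46) and Egfl7 (-0.31) passed the adjusted p but not the 1.5-fold limit.

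**Figure D4:**
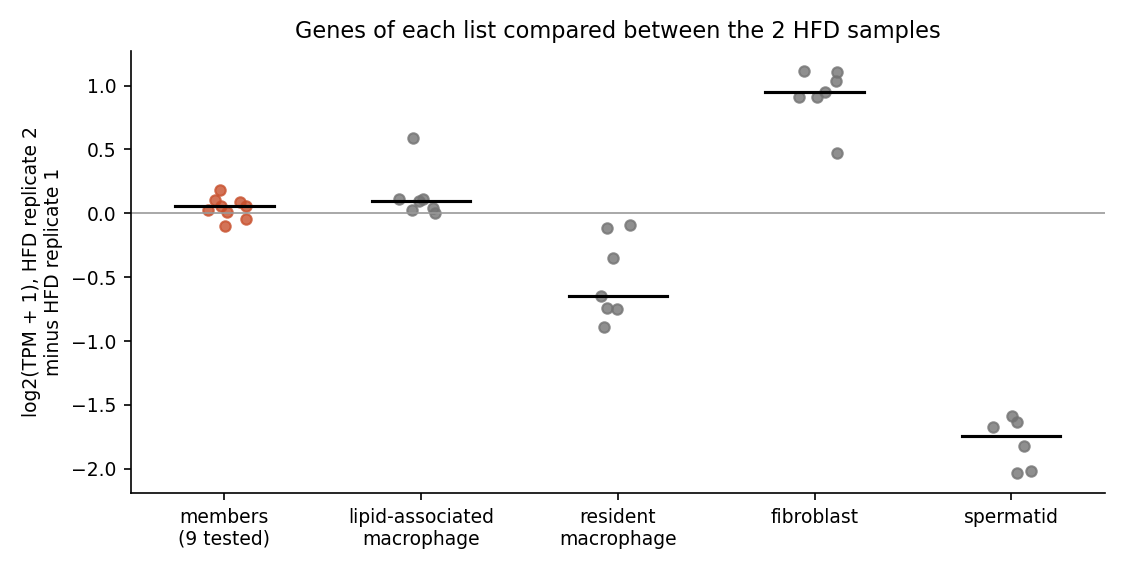
Difference between the HFD samples (replicate 2 minus replicate 1, log2(TPM + 1)) for each of the 9 genes tested (red) and for the genes of marker lists (grey), with the median of each group as a black line. The 9 genes lie between -0.10 and 0.18, while fibroblast markers are higher in replicate 2 and spermatid markers higher in replicate 1.

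The genes whose values across the 4 samples lay closest to those of Mfge8, by Euclidean distance of log2(TPM + 1) after each gene's own mean was taken off, were Gm40398 (distance 0.022), C77080 (0.112) and Fam198b (0.124). Gm40398 was at 1.6 and 1.6 TPM in ND and at 14.2 and 14.3 TPM in HFD. Closest to Gas6 were Hopx (0.052), Susd1 (0.059) and Jun (0.060). Jun, an immediate early gene and one of the genes of the dissociation response, was at 2045.4 and 1987.9 TPM in ND and at 716.3 and 659.2 TPM in HFD. With 4 samples in 2 diets, likeness mostly states a similar fold change.

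The rest of the machinery of apoptotic cell clearance was followed with 105 further genes in 8 lists by role. Of these, 96 were tested, 22 were higher in HFD and 13 were lower, which is 36.5% called against 18.4% of all genes tested. Their median log2 fold change was 0.21 against 0.06 over all genes. The lists were drawn up with earlier results of these data known, and their counts are descriptions.

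Among 14 other phosphatidylserine and phagocytic receptors tested, 8 were higher and 2 lower, with a median log2 fold change of 0.97. Trem2, a lipid receptor of macrophages, was at 71.8 and 79.0 TPM in ND and at 652.9 and 672.9 TPM in HFD (log2 fold change 3.12, SE 0.06, limma, adjusted p = 0.00378). Lrp1, an endocytic receptor that also takes up calreticulin-marked cells, was at 288.1 and 318.2 TPM in ND and at 749.9 and 787.3 TPM in HFD. Stab2, the relative of Stab1, went the other way from it, from 1.7 and 1.9 TPM to 9.8 and 8.0 TPM (log2 fold change 1.82, SE 0.14). Timd4, the TIM-4 receptor of resident macrophages, fell from 71.5 and 76.3 TPM to 6.0 and 4.5 TPM (log2 fold change -3.59, SE 0.15), further than any of the 10 genes. Trem2 and Timd4 are also among the markers of lipid-associated and resident macrophages described above. Cd300lf, a receptor of the CD300 family, was at 1.9 and 2.0 TPM in ND and 0.4 TPM in both HFD samples (log2 fold change -1.08). The direct phosphatidylserine receptors thus did not share 1 direction.

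Of 12 other bridging molecules and opsonins tested, 4 rose and 2 fell. Anxa1, which binds phosphatidylserine, rose from 605.1 and 640.9 TPM to 2811.9 and 2830.4 TPM, and Lgals3, galectin-3, from 434.7 and 428.9 TPM to 1819.8 and 1871.3 TPM, by 2.18 and 2.09 on the log2 scale. Ptx3, a soluble pattern receptor, was at 9.7 and 9.8 TPM in ND but at 39.7 and 99.9 TPM in HFD, with the HFD samples far apart (log2 fold change 2.58, SE 0.51, limma, adjusted p = 0.0437). The complement genes C1qa (3836.4 and 3647.7 TPM against 2388.1 and 2467.0 TPM) and C4b (214.4 and 219.6 TPM against 94.3 and 113.9 TPM) fell. C1qb and C1qc were lower at an adjusted p under 0.05 but under the 1.5-fold limit (log2 fold changes -0.30 and -0.46). C3 went the other way but was not called. It was at 155.2 and 162.7 TPM in ND and at 288.9 and 656.9 TPM in HFD (1.45, limma, adjusted p = 0.106).

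Of 17 genes of engulfment signalling tested with Elmo1's partners, Abr, a Rac regulator, was higher (log2 fold change 0.90) and Rac2, the Rac of blood cells, was lower, at 365.1 and 361.9 TPM in ND against 208.9 and 213.4 TPM in HFD (log2 fold change -0.78). The median of the list was 0.05. With 1 called higher and 1 lower of the 17, the list stands beside 18.4% called over all genes tested. Vav3 was higher and passed the adjusted p but not the 1.5-fold limit (log2 fold change 0.41). In this list 6 of the 17 had an unadjusted p under 0.05, with 5 higher and 1 lower, against 42.3% of all genes tested. Of 13 genes of phagosome maturation and LC3-associated phagocytosis, Dnase2a, the DNase of lysosomes, was higher (log2 fold change 0.77) and 0 were called lower by limma. Under the 1.5-fold limit but at an adjusted p under 0.05 were Lamp1, Rab7, Cybb and Lamp2, which were higher (log2 fold changes 0.42, 0.43, 0.39 and 0.35), and Uvrag, which was lower (-0.47). At an unadjusted p under 0.05 there were 9 of the 13, with 6 higher and 3 lower, against 42.3% of all genes tested. Of 6 genes of phosphatidylserine exposure tested, limma called 0, with 3 at an unadjusted p under 0.05, near the 42.3% over all genes. Of these the scramblase Ano6 passed the adjusted p but not the 1.5-fold limit (log2 fold change 0.52, limma, adjusted p = 0.0241).

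Of 11 find-me genes, which draw phagocytes to dying cells, the nucleotide receptor P2ry2 (log2 fold change 1.37) and the sphingosine phosphate receptor S1pr2 (1.08) were higher, and P2ry12 (-2.12), Gpr132 (-0.86) and Cx3cr1, the fractalkine receptor (-0.79), were lower. Of 6 don't-eat-me genes, Sirpa, the receptor of CD47, was higher, at 41.0 and 42.0 TPM in ND against 91.0 and 88.8 TPM in HFD, and Cd24a and Pilra were lower by 2.13 and 1.49 on the log2 scale.

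The last list held 17 genes of TAM receptor shedding and of responses to engulfment, of which 5 were higher and 3 lower. Nr1h3, the sterol receptor LXR-alpha, rose from 4.7 and 4.9 TPM to 21.2 and 20.9 TPM (log2 fold change 1.93, SE 0.07), and its known target Abcg1, a cholesterol exporter, rose from 38.1 and 36.6 TPM to 134.3 and 139.0 TPM (1.84, SE 0.05). Abca1, also a known target of LXR, was not called, at 38.8 and 43.0 TPM in ND and at 36.5 and 31.8 TPM in HFD (-0.25, limma, adjusted p = 0.168). Il10, an anti-inflammatory cytokine, was at 428.1 and 445.2 TPM in ND against 778.2 and 882.1 TPM in HFD (0.92). Adam17, the protease known to shed Mertk, named here after its values were seen, was at 20.1 and 21.7 TPM in ND against 35.7 and 38.1 TPM in HFD (0.79, limma, adjusted p = 0.0121). Socs3 (-0.84), a feedback inhibitor of cytokine signals, Rxra (-0.66), the partner of LXR, and Abca7 (-0.61), a lipid transporter, were lower.

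**Figure D5:**
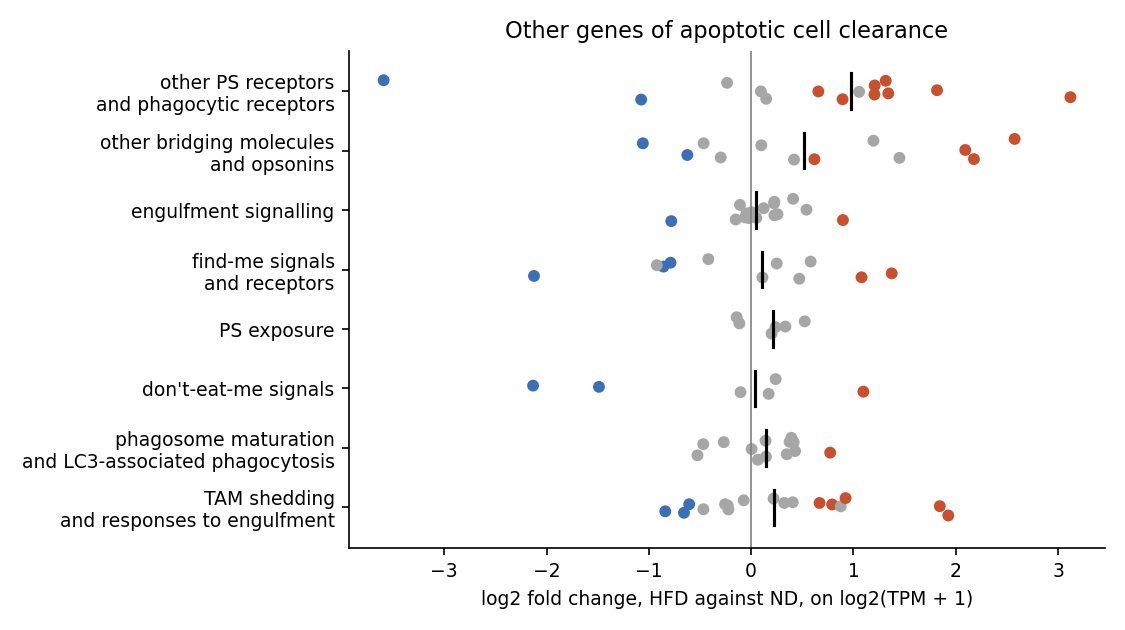
Log2 fold change (HFD against ND, log2(TPM + 1)) of the 96 further genes tested, 1 point a gene, by list, with those called higher in red, lower in blue, not called in grey and the list median as a black line. The list of other receptors spreads widest, from -3.59 to 3.12, while the genes of engulfment signalling stay between -0.78 and 0.90.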

How the data were processed

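The authors prepared stranded mRNA libraries, trimmed reads with Trim Galore 0.4.2 and cutadapt 1.9.1, aligned them to mm10 with STAR 2.6.1e, removed duplicates with Sambamba and counted reads per gene with featureCounts 1.6.2 (versions per the submitters' processing notes). The deposited values are TPM per gene symbol, which the authors printed to 1 decimal. The annotation and use of strand in counting are not given in the sources used here.

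Genes were kept where 2 or more samples reached a TPM of 1, and their log2(TPM + 1) values were fitted with limma 3.58.1 in R 4.3.3 (lmFit, eBayes with a variance trend), with Benjamini-Hochberg adjustment. The pseudocount of 1 makes the fold changes of low genes smaller. The fit was tested on simulated data with the same spread set for every gene and both diets. That test does not cover the wider spread between the HFD samples. Depth was estimated from steps in the TPM of microRNA genes; read numbers use GENCODE vM21 exon lengths and are approximate. Errors given cover the spread between samples only.

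The members and lists were chosen with earlier results of these data known. Named were all members, in each pathway list the called genes with the largest changes (at most 3 each way), and the 3 genes nearest to the largest riser and faller. Itgb3, Abca1, Adam17, C3 and some of the genes that passed the adjusted p but not the fold limit were named after their values were seen. Others that passed the adjusted p only, such as Calr and S1pr1, are not described. Alternatives were other pseudocounts, filters, scalings, fold limits, no variance trend, a replicate block and each sample left out.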

Additional observations from a re-analysis of the deposited data

How the results depend on the processing

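The 6 calls among the members (limma) were made under pseudocounts of 0.1 and 5, no filter, a mean TPM of at least 5, no variance trend, quantile normalization, scaling by median ratios, TPM rescaled with the 50 most abundant genes left out and a replicate block. They were also made without either HFD sample, where a single HFD sample is assumed to vary as the ND samples do, which were less far apart, so this is no check of the spread in HFD. None of the 9 members tested changed direction in these fits, and Tyro3 was fitted only with no filter. With a 2-fold limit 1 member was lower, since Stab1 was not called. Without ND replicate 1 or ND replicate 2, a single ND sample is assumed to vary as the HFD samples do, and limma called 0 genes of any kind, with 3471 and 3686 genes at an unadjusted p under 0.05, 7 and 6 members among them. Leaving out samples in turn thus gave 0 to 4 members higher, 0 to 2 lower, 0 to 27 pathway genes higher and 0 to 15 lower, and 0 to 4177 genes called in all. The log2 fold changes stayed at 1.27 to 1.37 for Axl, -1.65 to -1.56 for Gas6, 2.55 to 2.58 for Mfge8, 1.75 to 1.92 for Itgav, 2.11 to 2.30 for Itgb5 and -0.74 to -0.68 for Stab1, and adjusted p rose to 0.176. Over all genes, 3097 were called, against 2015 with a pseudocount of 5, 812 with a replicate block and 1604 with a 2-fold limit. The pathway lists had 14 genes higher and 5 lower with the replicate block and 14 and 6 with the 2-fold limit. Deviations of equally numbered samples had a correlation of -0.02 across genes. With 2 samples in each diet this cannot tell whether equal numbers mark a pairing, and the sources used here do not state one. The replicate block kept all 6 member calls. Of called genes, 43.9% were higher, and 61.1% without HFD replicate 2. Mertk had an adjusted p of 0.0394 after rescaling without the 50 most abundant genes and 0.0473 after quantile normalization, still under 1.5-fold. Among the members only Tyro3 had few reads, and for it low depth and the printing of TPM to 1 decimal were not told apart.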
